A study of Homo sapiens with 6 samples.

Results

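The EHD family and the proteins that bind it directly were followed as 10 genes in TC71, a human Ewing sarcoma cell line, after knockdown of EHD1. The genes were the paralogs EHD1, EHD2, EHD3 and EHD4 and the binding partners MICALL1, EHBP1, EHBP1L1, PACSIN2, PACSIN3 and RAB11FIP2, taken from the gene count table by symbol. All 10 were found among its 60676 genes, each on 1 row, and all 10 passed the filter on low counts. TC71 lines carried a lentiviral, doxycycline (Dox)-inducible construct with GFP that encoded either a non-targeting control shRNA (shNTC+Dox, 3 libraries) or an shRNA against EHD1 (shEHD1+Dox, 3 libraries), and both groups received Dox at 0.5 µg/ml for 3 days. The lines were polyclonal and puromycin-selected. The sources used here do not say which of the study's EHD1 shRNAs the libraries carry, and libraries without Dox were not analysed here, so an effect of EHD1 loss, an effect of the shRNA on other transcripts and a prior difference between the lines cannot be told apart.

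EHD proteins are membrane-bound ATPases related to dynamins that bend and cut endosomal membranes, and they are best known for returning internalized receptors from recycling endosomes to the cell surface. Each carries an EPS15 homology (EH) domain at its C-terminus, a pocket that binds partners through the tripeptide Asn-Pro-Phe (NPF). Acidic residues directly after NPF favor binding to the EH domains of this family. In Ewing sarcoma cells, the study asked whether EHD1 keeps the IGF-1 receptor at the surface, both by recycling and by transport from the Golgi.

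The members were first compared by the NPF runs in their reference coding sequences. In the canonical GENCODE 44 transcripts, in-frame codons for NPF (AACCCNTTC, AACCCNTTT, AATCCNTTC or AATCCNTTT, coding strand only) occurred 14 times in 5 of the 10 members. EHBP1 had 5 runs, PACSIN2 and RAB11FIP2 had 3 each, MICALL1 had 2 and EHD2 had 1, while EHBP1L1, PACSIN3, EHD1, EHD3 and EHD4 had none in these transcripts. Of 19755 coding sequences, 4.82% held at least 1 run and 0.339% at least 2, against 4 of the 6 partners with at least 2. The partners were chosen as binders of EHD proteins and coding length was not allowed for, so this contrast is description only. In 7 of the 14 runs the next codon began with GA, as codons for Asp and Glu do. Counted per sequence and not per run, MICALL1, EHBP1, PACSIN2 and RAB11FIP2 held such a run and EHD2 did not. Of the 952 coding sequences with a run, 86 held such a run, or 0.435% of all coding sequences. The runs of this kind in EHBP1, PACSIN2 and RAB11FIP2 are shown with the 9 bases on either side, the NPF codons in capitals.
EHBP1 run 1 (exon 8, hg38 2:62859231-62859239, plus strand): gtgaattcaAATCCATTTgatgatcct
EHBP1 run 4 (exon 9, 2:62864829-62864837, plus strand): cagtatttgAACCCATTCgatgagcca
PACSIN2 run 1 (exon 9, 22:42876947-42876955, minus strand): tccagctacAACCCCTTCgaggatgag
PACSIN2 run 3 (exon 10, 22:42876228-42876236, minus strand): ggggactcgAATCCATTCgacgacgac
RAB11FIP2 run 1 (exon 3, 10:118039262-118039270, minus strand): aggaagaaaAATCCATTTgaagaaagc
RAB11FIP2 run 3 (exon 5, 10:118009211-118009219, minus strand): ccggacagcAACCCCTTTgatgccact

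The coding sequences of the 4 paralogs are alike, so it was checked whether reads of one could be counted on another. EHD1 was most like EHD3, at 82.2% identical bases, and was 75.6% identical to both EHD2 and EHD4. The longest identical stretch between EHD1 and EHD3 coding sequences was 54 bases, shorter than the 75-base reads. No 75-base word of any EHD1, EHD2, EHD3 or EHD4 transcript occurred in a transcript of another EHD gene. EHD4 shared 3596 exon bases with a long non-coding RNA on the opposite strand (ENSG00000174171), which had at most 3 counts in any library. EHBP1 shared 487 and 195 exon bases with the opposite-strand genes EHBP1-AS1 (5 to 26 counts) and ENSG00000226605 (0 to 1), and RAB11FIP2 shared 487 and 220 with CASC2 and ENSG00000231104. PACSIN2 shared 155 exon bases with ARFGAP3 on the same strand, a gene that itself passed the test described below (log2 fold change 0.28, edgeR adjusted p = 0.0330). The library kit does not mark strand, so reads in these stretches cannot be assigned to 1 gene. EHD1, EHD2, EHD3, MICALL1, EHBP1L1 and PACSIN3 shared no exon base with another gene.

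Total counts ran from 22711235 to 30582187 per library. Within shNTC+Dox, replicate 3 stood apart, with a chi-square per degree of freedom of 23.7 and 25.1 against replicates 1 and 2, which differed by 5.27. Within shEHD1+Dox, replicate 2 differed from replicates 1 and 3 by 16.9 and 16, which differed by 7.39. No pair of replicates differed by as little as sampling noise. All 8 Ewing sarcoma markers examined, among them NR0B1 and NKX2-2, were present at a mean of 13.3 to 1280 CPM, and the 9 markers of blood, epithelium, endothelium, liver and muscle were all below 1 CPM, with CD3E, KRT20, MYOD1 and DES at 0 counts in every library. The labels do not say whether replicates came from separate cultures, so p-values measure only the spread between these libraries.

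EHD1 was the only member that passed the test. Levels are given as CPM (counts scaled to library size after TMM normalization), and tests are edgeR's quasi-likelihood test over 16785 genes with Benjamini-Hochberg adjustment. Of the 10 members, 1 passed an adjusted p of 0.05, and this was EHD1, which was lower in shEHD1+Dox. The same threshold was passed by 17.3% of all genes tested, 8.75% lower and 8.59% higher. With a 2-fold change added, EHD1 was again the only member, against 2.82% of all genes (1.74% lower, 1.08% higher). Of the other 9, none passed in edgeR, and 1, RAB11FIP2, passed in DESeq2, where 3614 of the 16785 genes passed. In edgeR, 4 of the 9 had an unadjusted p under 0.05, a count that was not set against all genes. The libraries of the groups did not overlap for 4 of the 10 members (40%), against 39.3% of all genes. EHD2, EHBP1 and RAB11FIP2 lay higher in shEHD1+Dox (19.9% of all genes did so) and EHD1 lower (19.4%). Without EHD1, the median of the other 9 log2 fold changes was 0.07, with 7 of 9 above 0, beside a median of 0 and 50.1% above 0 over all genes.

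**Figure D1:**
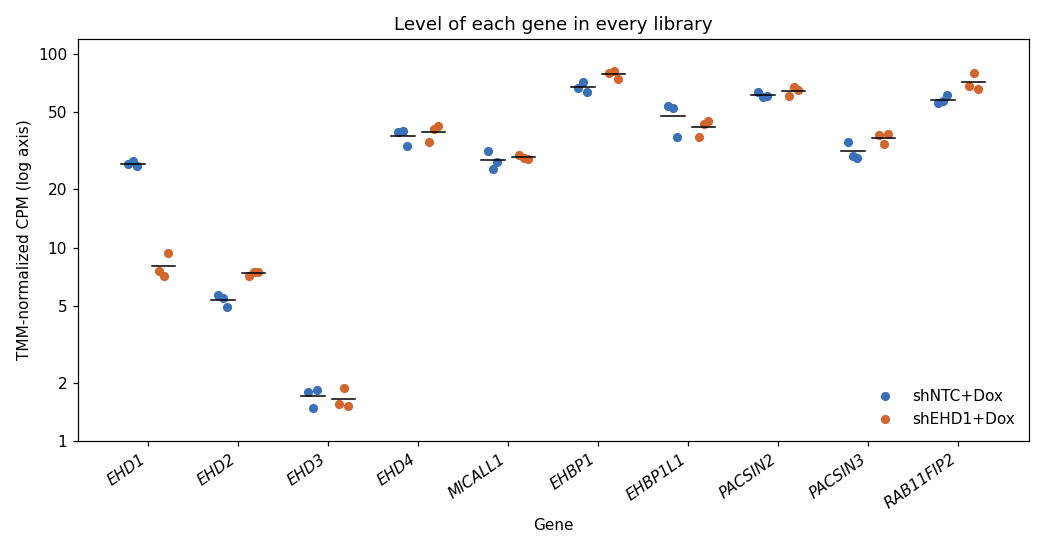
TMM-normalized CPM (log axis) of the 10 genes, with a point per library, shNTC+Dox in blue and shEHD1+Dox in orange, and a bar at each group mean of 3 libraries. EHD1 falls from a mean of 27.2 to 8.02 CPM, while the points of most other genes lie side by side.

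EHD1 (ENSG00000110047, minus strand of chromosome 11, 64851642 to 64888296, all positions in hg38) drives receptor exit from the endocytic recycling compartment. It was at 27.1, 28.0 and 26.4 CPM in shNTC+Dox replicates 1, 2 and 3 and at 7.55, 7.15 and 9.37 CPM in shEHD1+Dox replicates 1, 2 and 3. All shEHD1+Dox libraries lay far below all shNTC+Dox libraries, and replicate 3 of shEHD1+Dox kept the most transcript. The log2 fold change was -1.76 (95% interval -2.04 to -1.48, edgeR adjusted p = 1.35e-04), which left 29.6% of the control level. Among the genes tested, ordered by mean CPM, EHD1 moved from percentile 57.7 in shNTC+Dox to percentile 38.3 in shEHD1+Dox, and 0.649% of genes had a fold change as low or lower.

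EHD2, the paralog that sits at the necks of caveolae at the plasma membrane, had the largest difference among the other paralogs, without passing the threshold. EHD2 (ENSG00000024422, chromosome 19 from 47713422 to 47743134, plus strand) was at 5.70, 5.49 and 4.93 CPM in shNTC+Dox and at 7.16, 7.44 and 7.43 CPM in shEHD1+Dox. Each shEHD1+Dox library was above each shNTC+Dox library, and the 3 shEHD1+Dox values lay close together. The log2 fold change was 0.45 (95% interval 0.13 to 0.77, edgeR adjusted p = 0.0560), or 137% of the control level. The exact permutation p was 0.1, the smallest that 3 libraries against 3 can give, and none of 11 alternative fits passed 0.05 (adjusted p 0.0504 to 0.163). The counts behind it were low, between 110 and 230 per library. They measure RNA only, and the paper's immunoblots did not detect EHD2 protein in its Ewing sarcoma lines, TC71 among them.

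EHD4, which acts at early endosomes, did not pass. EHD4 (ENSG00000103966, chromosome 15 from 41895933 to 41972557, minus strand) was at 39.7, 40.2 and 33.5 CPM in shNTC+Dox and at 35.3, 41.2 and 42.3 CPM in shEHD1+Dox, so the groups overlapped, with shNTC+Dox replicate 3 the lowest library. Its log2 fold change was 0.07 (95% interval -0.16 to 0.30, edgeR adjusted p = 0.691), and -0.01 without that library. EHD3, the closest paralog of EHD1 by sequence and active in transport from early endosomes to the recycling compartment, had the lowest transcript level of the 10. At the protein level, the paper's immunoblots showed EHD3 in all of its Ewing sarcoma lines, so the low RNA count does not mean absent protein. EHD3 (ENSG00000013016, chromosome 2 from 31234152 to 31269451, plus strand) had 41 to 47 counts in every library, or 1.48 to 1.88 CPM. Its log2 fold change was -0.05 (95% interval -0.58 to 0.49, edgeR adjusted p = 0.914). This was the widest interval of the 10, and a difference within it was not detectable at this depth.

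**Figure D2:**
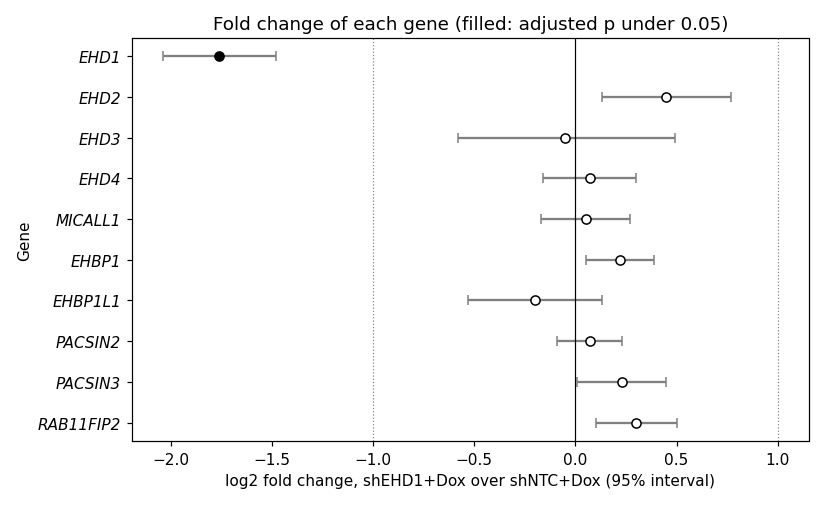
Log2 fold change of the 10 genes in shEHD1+Dox over shNTC+Dox with 95% intervals from edgeR, filled where the adjusted p was under 0.05, with dotted lines at a 2-fold change. EHD1 lies at -1.76, and the intervals of the other 9 genes lie inside the dotted lines.

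To see what the knockdown left of the family, counts of the 4 paralogs were divided by exon length and expressed as shares of their sum, with no test. EHD1 held 35.7%, 36.6% and 38.6% of the family in shNTC+Dox replicates 1, 2 and 3 and 13.8%, 11.8% and 14.8% in shEHD1+Dox. EHD4 held 46.2% ± 1.75 in shNTC+Dox and 59.8% ± 1.58 in shEHD1+Dox, EHD2 held 13.4% ± 0.327 and 22.7% ± 1.24, and EHD3 held 3.41% ± 0.552 and 4.07% ± 0.516 (SD, n = 3). A share of any other paralog goes up wherever EHD1 goes down, so these shares do not measure a rise of EHD2, EHD3 or EHD4.
The summed level of the family, in CPM per kilobase of exon, was 10.7, 10.8 and 9.64 in shNTC+Dox, against 7.74, 8.58 and 8.95 in shEHD1+Dox, with no overlap. The sum without EHD1 was 6.90, 6.84 and 5.92 in shNTC+Dox, against 6.68, 7.57 and 7.63 in shEHD1+Dox, and those ranges overlapped. The mean family sum was lower by 1.96 CPM per kilobase in shEHD1+Dox, while the mean sum of EHD2 to EHD4 was higher by 0.736. Of the exon bases of EHD4, 45.73% were shared with the opposite-strand RNA named above, while EHD1, EHD2 and EHD3 shared none. How reads there were counted is not known, so the share and level of EHD4 may depend on it, which was not tested. Shares also depend on the length used. Per longest transcript, EHD1 held 44% and EHD4 42.4% in shNTC+Dox, so the order of their means in control cells turned with that choice. By library, EHD1 and EHD4 were at 42.6% and 43.4% in replicate 1, 43.6% and 43.5% in replicate 2 and 45.8% and 40.4% in replicate 3, the library that stood apart.

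**Figure D3:**
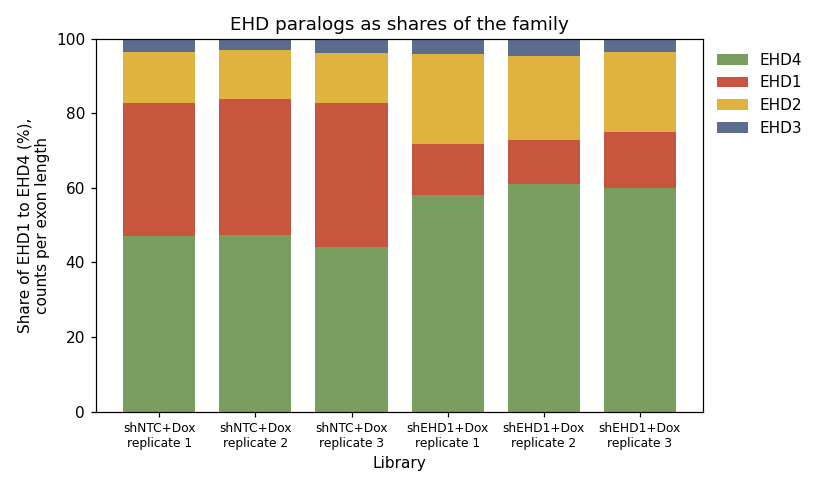
Share (%) of EHD1, EHD2, EHD3 and EHD4 in the summed counts per exon length of the family, a stacked bar for each of the 6 libraries. The EHD1 block shrinks from 35.7% to 38.6% in shNTC+Dox to 11.8% to 14.8% in shEHD1+Dox.

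The partners were ordered by their role. MICALL1 and the EHBP1 proteins carry calponin homology domains and link EHD proteins to tubular recycling endosomes and actin. MICALL1 (ENSG00000100139, chromosome 22 from 37905657 to 37942822, plus strand), which recruits EHD1 to recycling tubules, was at 31.7, 25.4 and 27.8 CPM in shNTC+Dox and at 30.1, 29.1 and 28.6 CPM in shEHD1+Dox. The shEHD1+Dox libraries lay inside the shNTC+Dox range, and the log2 fold change was 0.05 (95% interval -0.17 to 0.27, edgeR adjusted p = 0.774).
EHBP1 (ENSG00000115504, chromosome 2 from 62673851 to 63046487, plus strand), the partner with the most NPF runs above, was at 66.8, 71.5 and 64.0 CPM in shNTC+Dox and at 79.8, 81.8 and 74.2 CPM in shEHD1+Dox. The groups did not overlap. The log2 fold change was 0.22 (95% interval 0.05 to 0.39, edgeR adjusted p = 0.0733), and none of the 11 alternative fits passed.
EHBP1L1 (ENSG00000173442, chromosome 11 from 65576046 to 65592650, plus strand), a relative of EHBP1 that binds Rab8, was at 53.9, 52.9 and 37.2 CPM in shNTC+Dox and at 37.2, 43.4 and 45.1 CPM in shEHD1+Dox. shNTC+Dox replicate 3 lay with the shEHD1+Dox libraries and away from the other controls. The log2 fold change was -0.20 (95% interval -0.53 to 0.13, edgeR adjusted p = 0.386), and without shNTC+Dox replicate 3 it was -0.35 (edgeR adjusted p = 0.0167), the only one of 11 alternatives that passed.

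PACSIN2 and PACSIN3 are F-BAR proteins that sense and shape membrane curvature. PACSIN2 (ENSG00000100266, chromosome 22 from 42835412 to 43015149, minus strand) was at 63.4, 60.3 and 60.7 CPM in shNTC+Dox and at 61.1, 67.7 and 65.1 CPM in shEHD1+Dox, with overlapping groups. Its log2 fold change was 0.07 (95% interval -0.09 to 0.23, edgeR adjusted p = 0.515), the narrowest interval among the partners. PACSIN3 (ENSG00000165912, chromosome 11 from 47177522 to 47186443, minus strand) was at 35.3, 29.9 and 29.2 CPM in shNTC+Dox and at 38.2, 34.2 and 38.6 CPM in shEHD1+Dox. shNTC+Dox replicate 1 lay above shEHD1+Dox replicate 2, so the groups overlapped. Its log2 fold change was 0.23 (95% interval 0.01 to 0.45, edgeR adjusted p = 0.132).
RAB11FIP2 (ENSG00000107560, chromosome 10 from 118004916 to 118046941, minus strand) couples Rab11 on recycling vesicles to myosin V. It was at 55.7, 57.2 and 61.2 CPM in shNTC+Dox and at 68.1, 80.3 and 65.9 CPM in shEHD1+Dox. The groups did not overlap, with replicate 2 of shEHD1+Dox the highest. The log2 fold change was 0.30 (95% interval 0.10 to 0.50, edgeR adjusted p = 0.0513). It passed in 4 of 11 alternatives, with an adjusted p of 0.0246 in DESeq2, 0.0418 in edgeR without a filter, 0.0415 with at least 10 counts in every library and 0.0223 without shNTC+Dox replicate 3, and the range over all 11 was 0.0223 to 0.146. Part of its exons is shared with CASC2, which had 58 to 87 counts.

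Levels were compared between genes as CPM per kilobase of exon (n = 3 libraries). In shNTC+Dox the order was PACSIN2 at 13.5 ± 0.375, PACSIN3 at 11.4 ± 1.22, RAB11FIP2 at 8.92 ± 0.441, EHBP1 at 8.20 ± 0.462, EHBP1L1 at 7.13 ± 1.40, EHD4 at 4.81 ± 0.474, MICALL1 at 4.03 ± 0.448, EHD1 at 3.83 ± 0.114, EHD2 at 1.40 ± 0.104 and EHD3 at 0.353 ± 0.0398 (SD). Of neighbors in this order, RAB11FIP2 and EHBP1, EHBP1 and EHBP1L1, EHD4 and MICALL1, and MICALL1 and EHD1 overlapped in their libraries. In shEHD1+Dox the order was kept except that EHD1, at 1.13 ± 0.167, fell below EHD2, at 1.91 ± 0.0408, with no overlap. PACSIN2 and PACSIN3 were the only neighbors that overlapped there. Per longest transcript, a length chosen after seeing the data, EHBP1 moved to 13.1 in shNTC+Dox, ahead of EHBP1L1 at 9.28 and RAB11FIP2 at 9.07, while EHD1 at 6.10 ± 0.182, MICALL1 at 6.01 ± 0.667 and EHD4 at 5.90 ± 0.582 lay within their spread of each other.
EHD1 was related to each partner within the same library. For every 100 of MICALL1, there were 84.8 to 109 of EHD1 in shNTC+Dox and 24.4 to 32.5 in shEHD1+Dox. The same ratio was 45.4 to 47.8 and 10.2 to 14.7 for EHBP1, 39.6 to 45 and 8.18 to 13.1 for RAB11FIP2, and 27.5 to 29.9 and 6.80 to 9.26 for PACSIN2. For PACSIN3 it was 29.8 to 36.4 and 7.69 to 9.43, and for EHBP1L1 47.8 to 67.4 and 15.7 to 19.7. By this measure EHD1 was near MICALL1 in shNTC+Dox and below each of the other 5 partners, and in shEHD1+Dox it was below all 6. Per longest transcript the means for RAB11FIP2 were 67.4 in shNTC+Dox and 16.4 in shEHD1+Dox, so the ratio itself depends on length while the change between groups does not.

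**Figure D4:**
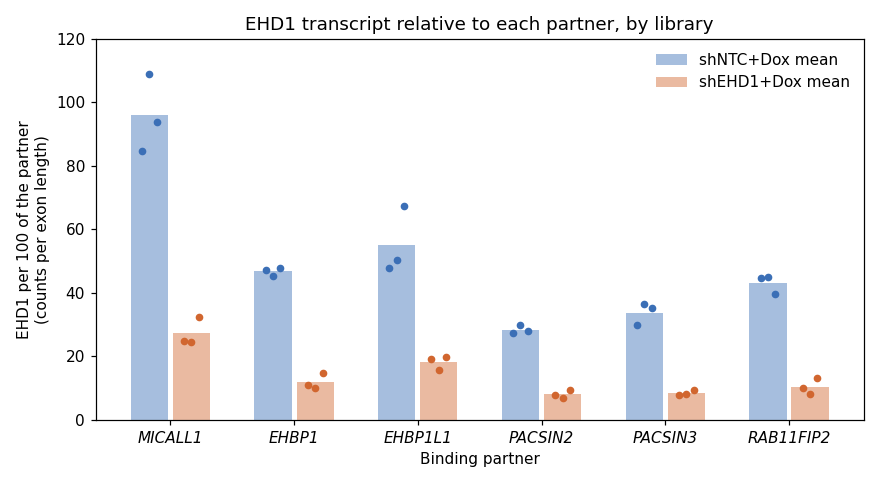
EHD1 per 100 of each partner, both as counts per exon length, with bars for the mean of 3 libraries and a point per library. In every partner the shEHD1+Dox points lie below the shNTC+Dox points, from 24.4 to 32.5 for MICALL1 down to 6.80 to 9.26 for PACSIN2.

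Further genes of the EHD pathway were taken from 6 lists, 61 genes in all, of which 55 passed the filter on low counts. Of the 55, 10 passed an edgeR adjusted p of 0.05 (18.2%, against 17.3% of all genes), 6 higher and 4 lower, with a median log2 fold change of 0.10.
The list of other EHD and NPF partners held the largest change of the 6. Of 19 tested, 2 rose and 1 fell (15.8% passing, against 17.3% of all genes), with a median log2 fold change of 0.14. MYOF, a ferlin that binds EHD2 and serves membrane fusion, was at 5.13, 4.44 and 3.40 CPM in shNTC+Dox and at 10.9, 11 and 11.7 CPM in shEHD1+Dox, well apart. It rose by 1.37 on the log2 scale (95% interval 0.99 to 1.75, edgeR adjusted p = 0.00140) and passed in all 11 alternatives. BIN1, an N-BAR protein of membrane tubules, was at 7.90, 8.05 and 6.85 CPM in shNTC+Dox and at 13.5, 11.1 and 12.4 CPM in shEHD1+Dox, and differed by 0.70 on the log2 scale (edgeR adjusted p = 0.00881). DPYSL2, a microtubule-binding protein that interacts with MICALL1 and EHD1, went from 148 ± 21.0 to 108 ± 6.29 CPM (SD, n = 3), or by -0.46 on the log2 scale (edgeR adjusted p = 0.0182). Its call was lost without shEHD1+Dox replicate 1 or 3 (adjusted p = 0.0738 and 0.0757). SNAP29, RBSN and NUMB, which also bind EHD proteins, had log2 fold changes of 0.12, -0.20 and 0.13 and did not pass. PACSIN1, the neuronal PACSIN, had 0 to 9 counts and was not tested.

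Of the 15 GTPases and retromer genes that act with EHD1, 2 rose and 3 fell, with a median log2 fold change of 0.06. That was 33.3% passing, against 17.3% of all genes (8.59% higher, 8.75% lower). SNX2, a retromer-associated sorting nexin, rose from 48.7 ± 2.52 to 62.9 ± 2.61 CPM (log2 fold change 0.37, edgeR adjusted p = 0.0107). RAB11A, the GTPase of recycling endosomes that RAB11FIP2 binds, rose from 115 ± 7.44 to 141 ± 1.85 CPM (0.29, edgeR adjusted p = 0.0204). VPS35, the core retromer subunit, fell from 152 ± 3.76 to 124 ± 5.48 CPM (-0.30, edgeR adjusted p = 0.0142), and RAB4A, of fast recycling, from 36.3 ± 3.28 to 29.3 ± 0.931 CPM (-0.31, edgeR adjusted p = 0.0411). The fifth, VPS29, is one of the 15 listed genes but was named here only after its value was seen, at -0.27 (edgeR adjusted p = 0.0251). Over the 11 alternatives, the call was lost in 7 for RAB4A, 4 for VPS35, 4 for RAB11A and 1 for SNX2. With 1 library left out, 1 to 6 of the 15 passed, where the calls over all genes ran from 1322 to 3616 in the same fits. Of the 15, 1 passed without shNTC+Dox replicate 1 (SNX2), 1 without shEHD1+Dox replicate 1 (VPS35), 2 without shNTC+Dox replicate 2 (SNX2 and RAB11A), 2 without shEHD1+Dox replicate 3 (SNX2 and RAB5A) and 3 without shEHD1+Dox replicate 2 (SNX2, RAB11A and VPS35). RAB35, ARF6, RAB8A and RAB10 did not pass, at -0.15, 0.05, -0.22 and -0.08.
Of the 7 proteins with EH domains at the N-terminus, 2 rose and none fell (28.6% passing, against 17.3% of all genes). REPS1, which acts in receptor endocytosis, was at 37.8, 41.5 and 41.6 CPM in shNTC+Dox and at 53.3, 56.7 and 56.4 CPM in shEHD1+Dox. The log2 fold change was 0.46 (95% interval 0.30 to 0.63, edgeR adjusted p = 0.00413), and it passed in all 11 alternatives. EPS15, the protein that gave the domain its name, had a log2 fold change of 0.25 at an edgeR adjusted p of 0.0490, and its call was lost in 7 of 11 alternatives (adjusted p 0.0181 to 0.137 over all).

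None of the 4 dynamins, the 4 caveolar genes tested or the 6 cargo receptors tested passed in edgeR or DESeq2. At an unadjusted edgeR p under 0.05 there were 0, 1 and 1 of them, counts that were likewise not set against all genes. CAV1, the main caveolar coat protein, was at 941 ± 102 and 823 ± 90.1 CPM. The 4 caveolar genes tested had log2 fold changes below 0, from -0.53 to -0.09, where 50.1% of all genes lay above 0. This shared sign was not tested. The lowest, CAVIN4, had only 28 to 45 counts per library, and its 95% interval ran from -1.17 to 0.10. CAVIN2, too low to be tested, went the other way. It had 0, 2 and 0 counts in the shNTC+Dox libraries, against 4, 5 and 5 with shEHD1+Dox. CAVIN1 turned to 0.04 without shNTC+Dox replicate 2. CAV2, at -0.19 (edgeR adjusted p = 0.112), passed only without shEHD1+Dox replicate 2 (-0.26, edgeR adjusted p = 0.0301). DNM1, a neuronal dynamin, was at 13.9, 13.5 and 4.66 CPM in shNTC+Dox, with replicate 3 far below the others. CAV3 and CAVIN3 had 0 counts in every library. IGF1R, the receptor the study followed, averaged 111 ± 5.40 CPM in shNTC+Dox, against 127 ± 6.38 CPM with shEHD1+Dox (SD, n = 3), with every shEHD1+Dox library above every shNTC+Dox library. Its log2 fold change was 0.19 (95% interval 0.03 to 0.35, edgeR adjusted p = 0.0960). The paper reports lower total receptor protein by immunoblot both in TC71 after EHD1 knockdown and in knockout lines. Its qPCR, with comparable IGF1R mRNA, was made in knockout lines, another system than this knockdown. EGFR, another cargo of EHD1, had 0 counts in every library.

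**Figure D5:**
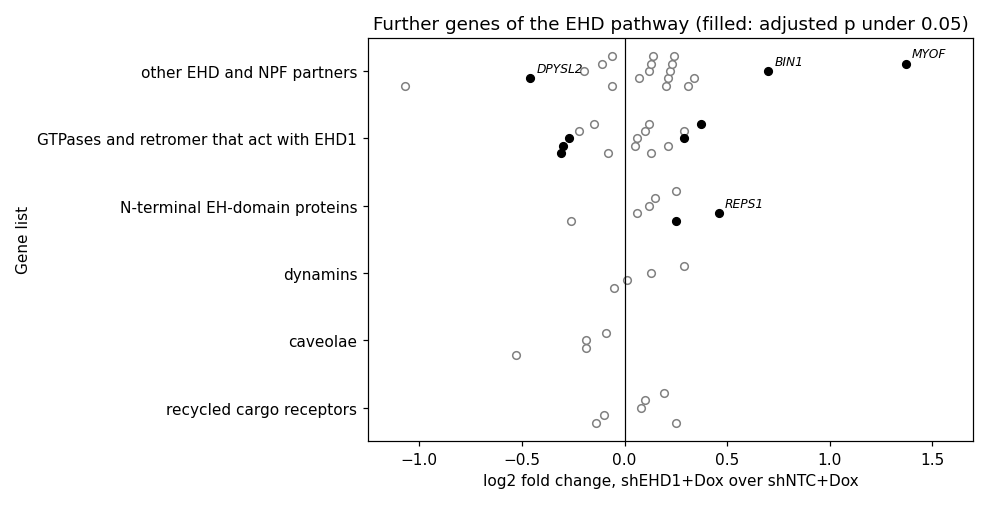
Log2 fold change in shEHD1+Dox over shNTC+Dox of the 55 tested genes of the 6 lists, a point per gene, filled where the edgeR adjusted p was under 0.05 and spread vertically within a list only for legibility. MYOF at 1.37 lies far to the right of the other genes, and no dynamin, caveolar or cargo gene is filled.

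The genes whose level followed EHD1 most closely over the 6 libraries were BEX1, OLFML3, FGF13, FERMT3 and SLC29A2, with Pearson's r of log2 CPM from 0.9970 to 0.9972 among 13160 genes compared. All 5 were lower in shEHD1+Dox, with log2 fold changes of -1.47, -0.75, -1.5, -1.05 and -0.73 (edgeR adjusted p = 8.79e-05, 8.35e-04, 2.37e-04, 2.69e-04 and 3.90e-04). As many as 487 genes had an r of at least 0.95, and with 3 libraries in each of 2 groups such a correlation mostly describes the difference between the groups. No member of the family or partner was among the 5.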

How the data were processed

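RNA was taken from TC71 lines after 3 days of Dox, and libraries were made with a poly(A) kit that does not mark strand and sequenced as paired 75-base reads. The authors deposited 1 table of whole-number read counts per gene, not normalized. The study's methods name hisat2 and StringTie with hg38, whereas the submitters' processing notes name STAR 2.7.3a, hg38 and DESeq2, and how the counts were derived is not given in the sources used here. The table's symbols and Ensembl identifiers were used, and 60357 of 60676 identifiers (99.47%) matched GENCODE 44 (GRCh38), from which positions, exon lengths and coding sequences were taken.

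The 16785 genes that reached 10 counts in 3 or more of the 6 libraries were scaled by TMM and tested between shEHD1+Dox and shNTC+Dox with the robust quasi-likelihood test of edgeR 4.0.16 (R 4.3.3), with Benjamini-Hochberg adjustment over all genes and a threshold of 0.05. Total counts were 22711235 to 30582187, and the typical variation between replicates was 15%. Single values were also compared by an exact two-sided permutation test, which cannot go below 0.1 here. Levels between genes are CPM per kilobase of the union of a gene's exons, and means carry the SD of 3 libraries. Alternatives were DESeq2 1.42.0, its size factors in edgeR, other filters, a replicate block, each library left out and, for levels, the longest transcript or no length. The members and lists were chosen with earlier results of these data known. The rule for naming took the 10 members, IGF1R, from each list at most 4 genes past the threshold with a mean of at least 1 CPM and the largest fold changes, and the 5 genes best correlated with EHD1. Other listed genes were named after their values were seen. Of the NPF runs followed by a codon that begins with GA, 1 is not printed here.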

Additional observations from a re-analysis of the deposited data

How the results depend on the processing

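EHD1 passed the threshold with its direction kept in all 11 alternatives (log2 fold change -1.88 to -1.68). The number of members called, 1 as reported, was 2 in DESeq2, 2 without a filter and 2 with at least 10 counts in every library. Over all genes, the same fits called 3614 of 16785, 2590 of 31000 and 3118 of 14792. When 1 library was left out, 1 to 3 members were called. The 3 were EHD1, EHBP1L1 and RAB11FIP2 without shNTC+Dox replicate 3, where 3616 of 16560 genes passed. Members near 0 changed sign when a library was left out: EHD3 ranged from -0.15 to 0.01 (0.01 without replicate 3 of either group), EHD4 from -0.01 without shNTC+Dox replicate 3 to 0.15, and MICALL1 from -0.03 without shNTC+Dox replicate 2 to 0.13. The cause was not tested.

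Deviations of same-numbered libraries correlated at 0.072, -0.0593 and -0.0448, and 1 of 3 shNTC+Dox libraries correlated best with its own number. The labels do not say whether the numbers mark pairs, and 3 libraries per group cannot decide it. With the replicate block, 1766 genes passed in place of 2910, EHD1 was at -1.77 (edgeR adjusted p = 0.00250), 1 member was called, and 1 gene each was called among the GTPases and retromer and the N-terminal EH-domain proteins. Over all genes, 3614 passed in DESeq2 and 3616 without shNTC+Dox replicate 3, but 1713 without shNTC+Dox replicate 1, 1341 when shEHD1+Dox replicate 1 was left out and 1322 when its replicate 3 was, where 293 in place of 473 also passed a 2-fold change.

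Of the GTPases and retromer, 5 were called as reported, 3 without a filter and 1 to 6 with a library left out. Of the N-terminal EH-domain proteins, 2 were called as reported, 1 with DESeq2 size factors and 1 to 3 with a library left out. The other EHD and NPF partners gave 2 to 4 and the caveolar genes 0 to 1 with a library left out.

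Per longest transcript, the shares of the family in shNTC+Dox and shEHD1+Dox were 44% and 17.3% for EHD1, 11% and 20.1% for EHD2, 2.55% and 3.29% for EHD3, and 42.4% and 59.3% for EHD4. Without a length correction they were 37.8% and 14.2% for EHD1, 7.46% and 13% for EHD2, 2.38% and 2.92% for EHD3, and 52.4% and 69.9% for EHD4. EHD3, with 41 to 47 counts in a library, had the fewest counts of the 10 members and the widest interval.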
